A study of Homo sapiens with 12 samples.

Results

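CUX1, ZFHX3 and CASZ1 encode large transcription factors of the homeobox and zinc-finger families, and their transcripts carried 410 of the 26351 peaks of the RNA-binding protein NONO mapped in a prostate cancer cell line. The members were chosen by name: every peak that the authors' annotation assigned to one of the 3 symbols was taken, which gave 179 peaks in CUX1, 162 in CASZ1 and 69 in ZFHX3. In 22Rv1, an established human prostate cancer line, NONO was crosslinked to RNA by UV light and immunoprecipitated, and its RNA fragments were sequenced with a matched input library, the assay known as eCLIP. Cells were grown for 40 h and then received, for 4 h, either the vehicle DMSO at 0.04% or 20 µM of SKBG-1(R) or SKBG-1(S), the stereoisomers of a small molecule directed at NONO, in the same 0.04% DMSO, before irradiation at 400 mJ. Each of the 3 treatments had 2 replicates, and each replicate gave 1 peak list, called against its own input. The line is 1 cell line, and cells came from several plates per condition. The study's RNA-seq and NONO-knockout cells are not analysed here. The lists are named below by treatment and replicate number.

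CUX1 is a homeodomain protein that also carries CUT DNA-binding repeats, and its gene has alternative promoters that give protein forms with different DNA-binding parts. ZFHX3 joins many zinc fingers with several homeodomains and is frequently mutated in prostate cancer. CASZ1 is a zinc-finger factor of neural and heart muscle development. NONO is a nuclear protein of the DBHS family that binds nascent transcripts, which still hold their introns, and takes part in their transcription and splicing.

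The lists held 669 (DMSO 1), 3678 (DMSO 2), 1953 (SKBG-1(R) 1), 14847 (SKBG-1(R) 2), 1237 (SKBG-1(S) 1) and 3967 peaks (SKBG-1(S) 2), so that the replicate 2 list was the longer in every treatment and SKBG-1(R) 2 held 56.3% of all peaks. No read totals were available, and depth is unknown. A gene without a peak in a list of this kind is not shown to be unbound. Levels are therefore given as peaks per 10000 peaks of the list, beside the numbers. Every deposited peak had a log2 enrichment over input of at least 3 and a −log10 p of at least 3, both as the authors computed them.

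CUX1 was the most heavily marked of the 3 genes in every list but SKBG-1(R) 2, where CASZ1 led. Its peaks numbered 5 and 22 for DMSO, 28 and 64 for SKBG-1(R) and 22 and 38 for SKBG-1(S). As a share of the list this was 74.7 and 59.8 peaks per 10000 for DMSO, 143 and 43.1 for SKBG-1(R), and 178 and 95.8 for SKBG-1(S). The highest shares were in the replicate 1 lists of both compounds and the lowest in SKBG-1(R) 2, so the SKBG-1(R) pair spanned the DMSO pair. Both SKBG-1(S) values lay above both DMSO values. By number of peaks CUX1 ranked 6th and 5th among the genes of SKBG-1(R) 1 and SKBG-1(S) 1, and 48th in SKBG-1(R) 2.

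ZFHX3 held 4 and 13 peaks for DMSO, 14 and 25 for SKBG-1(R), and 1 and 12 for SKBG-1(S). Its share was 59.8 and 35.3 per 10000 for DMSO, 71.7 and 16.8 for SKBG-1(R), and 8.08 and 30.2 for SKBG-1(S). SKBG-1(R) 1 was the highest of all lists and SKBG-1(R) 2 the second lowest. Both SKBG-1(S) values lay below both DMSO values. The 4 peaks of DMSO 1 were touching pieces of a single site, described below. When peaks that touch end to end were joined into blocks, an alternative chosen after seeing the data, the shares became 17.2 and 35.2 blocks per 10000 blocks for DMSO and 9.66 and 27.6 for SKBG-1(S), and these groups overlapped.

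CASZ1 held 2 and 17 peaks for DMSO, 3 and 123 for SKBG-1(R), and 0 and 17 for SKBG-1(S). Its share was 29.9 and 46.2 per 10000 for DMSO, 15.4 and 82.8 for SKBG-1(R), and 0 and 42.9 for SKBG-1(S). In every treatment the replicate 2 list, the longer one, had the higher share, and for CUX1 the lower. SKBG-1(R) 2 alone held 75.9% of all CASZ1 peaks, against 35.8% for CUX1, 36.2% for ZFHX3 and 56.3% for all peaks together.

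**Figure D1:**
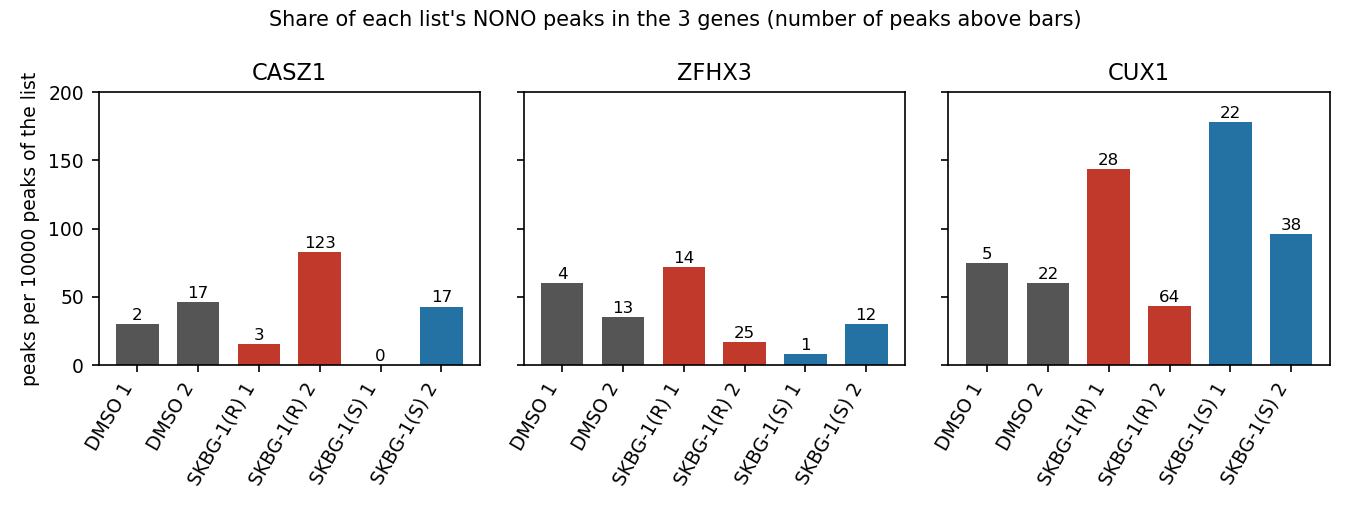
Bars give the share of each peak list that lay in CASZ1, ZFHX3 and CUX1, in peaks per 10000 peaks of the list, with the number of peaks above each bar. Grey is DMSO, red SKBG-1(R) and blue SKBG-1(S). CUX1 reached 178 per 10000 in SKBG-1(S) 1, while CASZ1 was highest, at 82.8, in SKBG-1(R) 2.

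The CUX1 gene (ENSG00000257923.10, plus strand) spans chromosome 7 from 101815904 to 102283958 in GRCh38, a length of 468 kb. Its NONO peaks gathered in the first 2 kb, at the start of intron 1 of the long transcript ENST00000437600.9. This stretch is 0.428% of the gene and held 108 of the 179 peaks (60.3%, 95% Wilson interval 53.0 to 67.2, which covers counting error only and takes peaks as independent, though many touch). It held 5 of 5 and 12 of 22 peaks of the DMSO lists, 16 of 28 and 38 of 64 of the SKBG-1(R) lists, and 17 of 22 and 20 of 38 of the SKBG-1(S) lists. The lowest share, 52.6%, was in SKBG-1(S) 2. Peaks near a start were common in other genes too. Within 3 kb of a coding transcript start lay 100 and 54.5% of the CUX1 peaks of the DMSO lists, 64.3 and 59.4% for SKBG-1(R), and 77.3 and 52.6% for SKBG-1(S). Over the other protein-coding genes the shares were 72.9 and 51.9%, 72.9 and 42.1%, and 74.9 and 61.3%. CUX1 was thus above the other genes in 4 lists and below them in SKBG-1(R) 1 and SKBG-1(S) 2, and the difference was not tested. A further coding transcript, ENST00000292535.11, starts inside it at 101817602, 1698 nt from the gene's start. The 2 kb stretch was chosen after the peaks had been seen.

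Peaks in these 2 kb also had the smaller p-values. Their median −log10 p was 6.37 and 13.2 in the DMSO lists, 9.91 and 33.6 in the SKBG-1(R) lists, and 6.89 and 14.5 in the SKBG-1(S) lists. Outside, the median was 4.14 in DMSO 2, 3.75 and 5.35 for SKBG-1(R), and 3.91 and 4.59 for SKBG-1(S), and DMSO 1 had no peak. In each of the 5 lists with peaks in both places the median was higher inside. Median log2 enrichment differed less, at 4.03 inside and 3.63 outside over all lists.

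Replicate lists shared CUX1 sites to different degrees. Of the CUX1 peaks of SKBG-1(S) 1, 68.2% overlapped a peak of SKBG-1(S) 2, and 44.7% in the other direction. The shares were 67.9 and 40.6% for the SKBG-1(R) pair and 40 and 9.09% for the DMSO pair, which includes the shortest list. Of the 70 merged regions of CUX1, 2 were held by all 6 lists, beside 101 of 16419 regions over all genes. Both CUX1 regions lay in the first 2 kb. A region joins overlapping peaks of any list. Nucleotides covered in every list numbered 120 in CUX1 and 0 in CASZ1 and ZFHX3. The first, chr7:101816632-101816929, starts 728 nt into the gene in intron 1. Its highest log2 enrichment was 4.33 and 5.10 in the DMSO lists, 4.38 and 5.77 in the SKBG-1(R) lists, and 3.66 and 4.02 in the SKBG-1(S) lists. Its −log10 p reached 400, the cap of the deposited values, in SKBG-1(R) 2, and 6.37 to 36.7 in the other lists. Within it, 73 nt from 101816729 to 101816801 were covered in every list. The second, chr7:101817156-101817298, had log2 enrichments of 3.80 and 3.91 for DMSO, 3.45 and 4.17 for SKBG-1(R), and 4.45 and 5.93 for SKBG-1(S). Here both SKBG-1(S) values were above the 4 others, and the list values are highest peaks from lists of different length, so no change is read from them.

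Regions 3 and 4 of CUX1, chr7:101816358-101816603 and chr7:101816108-101816266, lie nearer the gene's start in the proximal part of intron 1, the part within 500 nt of an exon. Both were absent from DMSO 2 and present in the 5 other lists. In the region at 101816358 the log2 enrichment was 4.63 in DMSO 1, 4.36 and 4.20 for SKBG-1(R), and 5.68 and 4.33 for SKBG-1(S). In the region at 101816108 it was 4.75 in DMSO 1, 4.23 and 4.06 for SKBG-1(R), and 4.80 and 4.05 for SKBG-1(S). DMSO 2 is the longer of the DMSO lists.

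The region that spans the inner start, chr7:101817406-101817633, runs from intron 1 into the first exon of ENST00000292535.11 and was held by every list but DMSO 1. Its intronic side is shown as a site shared by 5 lists that lies in the RefSeq promoter window of the inner start (GRCh38). The 226 nt of intron at chr7:101817376-101817601, plus strand, read 5′ to 3′ as follows, with capitals for the 68 nt from 101817434 to 101817501 that lay in peaks of DMSO 2 and all 4 compound lists.
CUX1 intron 1 before the inner start: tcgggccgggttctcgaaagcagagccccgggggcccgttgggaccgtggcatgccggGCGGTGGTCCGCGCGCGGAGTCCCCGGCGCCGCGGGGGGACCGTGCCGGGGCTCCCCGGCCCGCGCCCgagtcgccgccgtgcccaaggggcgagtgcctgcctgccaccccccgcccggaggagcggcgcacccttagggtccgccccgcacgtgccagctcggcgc
The stretch is made mostly of G and C, which form 81.0% of the 226 nt and 89.7% of the 68 shared nt. The 300 nt RefSeq window around the inner start was 78.3% GC, at the 96.0th percentile of 35116 such windows, whose median was 58.7%.

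**Figure D2:**
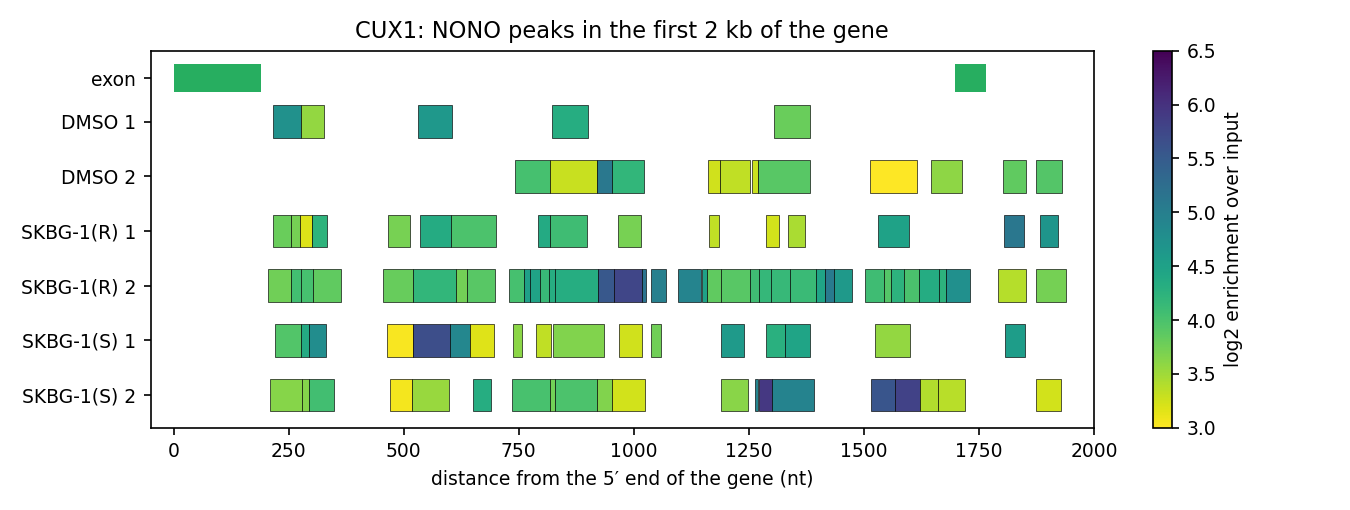
Boxes are NONO peaks in the first 2 kb of CUX1, by list, placed by distance from the 5′ end of the gene in nt and coloured by the authors' log2 enrichment over input. Green boxes are the first exons of ENST00000437600.9 and, inside the stretch, ENST00000292535.11. All 6 lists had peaks in the regions that begin 728 and 1252 nt from the start, while DMSO 2 had none in the 2 regions nearest the gene's start.

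Beyond the first 2 kb CUX1 peaks thinned out along introns 1 and 2. Between 2 and 20 kb from the gene's start there were 0 and 4 peaks for DMSO, 8 and 9 for SKBG-1(R), and 1 and 9 for SKBG-1(S). Between 20 and 100 kb SKBG-1(R) 2 held 15 of the 21 peaks and SKBG-1(R) 1 held 4. Intron 2 carried 18 peaks, of which 0 and 5 were in the DMSO lists, 0 and 2 in the SKBG-1(R) lists and 4 and 7 in the SKBG-1(S) lists. SKBG-1(S) 1 thus had more peaks in intron 2 than SKBG-1(R) 2, a far longer list. These are small counts from 2 lists a treatment and were not tested. The last peak, in intron 3 of SKBG-1(S) 2, was 228 kb from the start, and no list had a peak in the rest of the gene.

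ZFHX3 (ENSG00000140836.16, minus strand) spans chromosome 16 from 72782885 to 73891871, or 1109 kb. Its peaks clustered not at the far 5′ end of the gene but at its inner coding starts. Within 3 kb of a coding transcript start, which takes up 1.35% of the gene, lay 50 of 69 peaks (72.5%, interval 61.0 to 81.6). By list the ZFHX3 share was 0 of 4 and 8 of 13 for DMSO, 13 of 14 and 17 of 25 for SKBG-1(R), and 1 of 1 and 11 of 12 for SKBG-1(S). These are 0 and 61.5%, 92.9 and 68%, and 100 and 91.7%, beside the shares of 72.9 and 51.9%, 72.9 and 42.1%, and 74.9 and 61.3% over the other protein-coding genes. ZFHX3 was above the other genes in 5 lists, 1 of which had a single ZFHX3 peak, and below them in DMSO 1, and the difference was not tested. The 3 kb measure was chosen after the data had been seen.

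The inner start, that of ENST00000268489.9 at 73048375, had 25 peaks from 500 nt before it to 800 nt after. They numbered 0 and 5 in the DMSO lists, 5 and 10 in the SKBG-1(R) lists and 1 and 4 in the SKBG-1(S) lists. The leading region, chr16:73048402-73048538, lies just before this start in intron 9 of ENST00000641206.2 and was in 5 lists. Its log2 enrichment was 3.48 in DMSO 2, 4.43 and 6.28 for SKBG-1(R), and 3.84 and 3.78 for SKBG-1(S). It held the only ZFHX3 peak of SKBG-1(S) 1.

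After the start, peaks covered the 5′ untranslated first exon of this transcript. Over the whole gene, 17 of the 69 ZFHX3 peaks (24.6%) carried the 5′ UTR class, against 5.86% for the other protein-coding genes. By list they numbered 0 and 4 for DMSO, 3 and 7 for SKBG-1(R), and 0 and 3 for SKBG-1(S). Many overlap or touch, so they are not independent, and the difference was not tested. Among these 17 peaks chr16:73058693-73058792, in SKBG-1(R) 2, lay instead in the first exon of ENST00000397992.5, described below. The region chr16:73047919-73048034, in the first exon of ENST00000268489.9, was in 4 lists. Its log2 enrichment was 3.04 in DMSO 2, 4.10 and 3.23 for SKBG-1(R), and 3.72 in SKBG-1(S) 2. Short sites of 30 nt are shown, the middle of stretches shared by at least 3 lists in this exon (GENCODE 29, GRCh38, minus strand, 5′ to 3′), with capitals for a match to GGTGGG, one of the motifs searched.
ZFHX3 chr16:73048322-73048351, in DMSO 2, SKBG-1(R) 2 and SKBG-1(S) 2: gtccctgcgggcgggcgggcgcggtcgccg
ZFHX3 chr16:73047972-73048001, in these lists and SKBG-1(R) 1: ccggggacgggccgaccgccagccctgccg
ZFHX3 chr16:73047852-73047881, in DMSO 2 and both SKBG-1(R) lists: tgccgcctggGGTGGGtgagctcggggctc
Their GC content was 90, 86.7 and 76.7%. The RefSeq window chr16:73048079-73048378, which lies almost wholly within the first exon of ENST00000268489.9, was 70.7% GC, the 81.9th percentile of all windows. Like the CUX1 stretch, these sites are rich in runs of G and C.

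The outer start, that of ENST00000397992.5 at 73059698, also had 25 peaks, in the 2.1 kb that follow it. They numbered 0 and 3 for DMSO, 8 and 7 for SKBG-1(R), and 0 and 7 for SKBG-1(S). All but 1, in SKBG-1(R) 2, lay past the end of the 1169 nt first exon, at the beginning of the intron. The region chr16:73057717-73057854 had log2 enrichments of 4.09 in DMSO 2, 3.80 and 4.68 for SKBG-1(R), and 5.43 in SKBG-1(S) 2. The region chr16:73058139-73058277 had 3.35 in DMSO 2, 3.69 and 4.18 for SKBG-1(R), and 4.25 in SKBG-1(S) 2. Neither start zone was in DMSO 1, and the outer one was not in SKBG-1(S) 1, the shortest lists. Away from both start zones, chr16:73033090-73033226, 859 kb from the gene's start in intron 9 of ENST00000641206.2, was in 4 lists. Its log2 enrichment was 3.16 in DMSO 2, 3.63 and 3.36 for SKBG-1(R), and 3.86 in SKBG-1(S) 2.

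The only ZFHX3 site of DMSO 1 lay apart from all of this, 414 kb from the gene's start in intron 2 of ENST00000641206.2. There chr16:73478314-73478359, a stretch of 46 nt, held 4 touching peaks of DMSO 1, each 5 to 14 nt wide with the same log2 enrichment of 4.26 and −log10 p of 5.99. DMSO 2 had 2 touching peaks at 3.33 and SKBG-1(R) 2 a single peak at 3.53. SKBG-1(R) 1 and both SKBG-1(S) lists had none.

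The short motifs searched were GGTAAG, a strong form of the splice site at the start of an intron, the repeat TGTGTG, the purine-rich GGGAGG, its relative GGTGGG, and the run TTTTTT. They occurred on neither strand of the 300 nt RefSeq windows around the inner start of CUX1 and in the first exon of ZFHX3 transcript ENST00000268489.9. On the transcribed strand alone they occur in 4.39, 9.36, 30.1, 20.8 and 10.1% of the 35116 windows, and on either strand in 8.02, 17.2, 49.3, 35.6 and 17.7%. No motif contains another, though GGGAGG and GGTGGG can overlap at their ends, and the search covered these windows and the sequences printed above. Among those sequences GGTGGG occurred once, on the transcribed strand of the ZFHX3 site chr16:73047852-73047881, which lies outside the window, and the other motifs had 0 matches on either strand.

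CASZ1 (ENSG00000130940.14, minus strand) spans chromosome 1 from 10636604 to 10796650, or 160 kb. Its peaks were all in introns and lay at the start and far along the gene. The first 3 kb, 1.88% of the gene, held 41 of 162 peaks (25.3%, interval 19.2 to 32.5), namely 1 of 2 and 7 of 17 for DMSO, 3 of 3 and 23 of 123 for SKBG-1(R), and 0 and 7 of 17 for SKBG-1(S). In SKBG-1(R) 2 the share within 3 kb of a coding start was 18.7%, against 42.1% for the other protein-coding genes of that list. In DMSO 2 and SKBG-1(S) 2 it was 41.2% in each, against 51.9 and 61.3%. In DMSO 1, with 2 CASZ1 peaks, it was 50% against 72.9%. In SKBG-1(R) 1, with 3, it was 100% against 72.9%, the only list with CASZ1 above the other genes. The difference was not tested.

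The CASZ1 region held by most lists, chr1:10794851-10795018, begins 1632 nt into the gene in intron 1 of ENST00000377022.7. It was in all lists but SKBG-1(S) 1, which had no CASZ1 peak. Its log2 enrichment was 3.69 and 4.31 for DMSO, 3.60 and 3.71 for SKBG-1(R), and 3.97 in SKBG-1(S) 2. This region and chr1:10795415-10795545 were the only ones that the SKBG-1(R) lists shared. The latter had 3.49 in DMSO 2, and 3.66 and 3.62 for SKBG-1(R).

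A further cluster lay 102 kb from the start, in the last 1.5 kb of intron 3 before exon 4. It held 19 peaks, 1 and 3 for DMSO, 0 and 9 for SKBG-1(R), and 0 and 6 for SKBG-1(S). In the region chr1:10694800-10695000 the log2 enrichment was 3.59 in DMSO 2, 5.30 in SKBG-1(R) 2 and 3.72 in SKBG-1(S) 2. In chr1:10695004-10695105 it was 3.50, 4.24 and 4.56 in the same lists. These are the replicate 2 lists of the 3 treatments. A shorter transcript, ENST00000496432.6, starts within the cluster at 10694479.

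**Figure D3:**
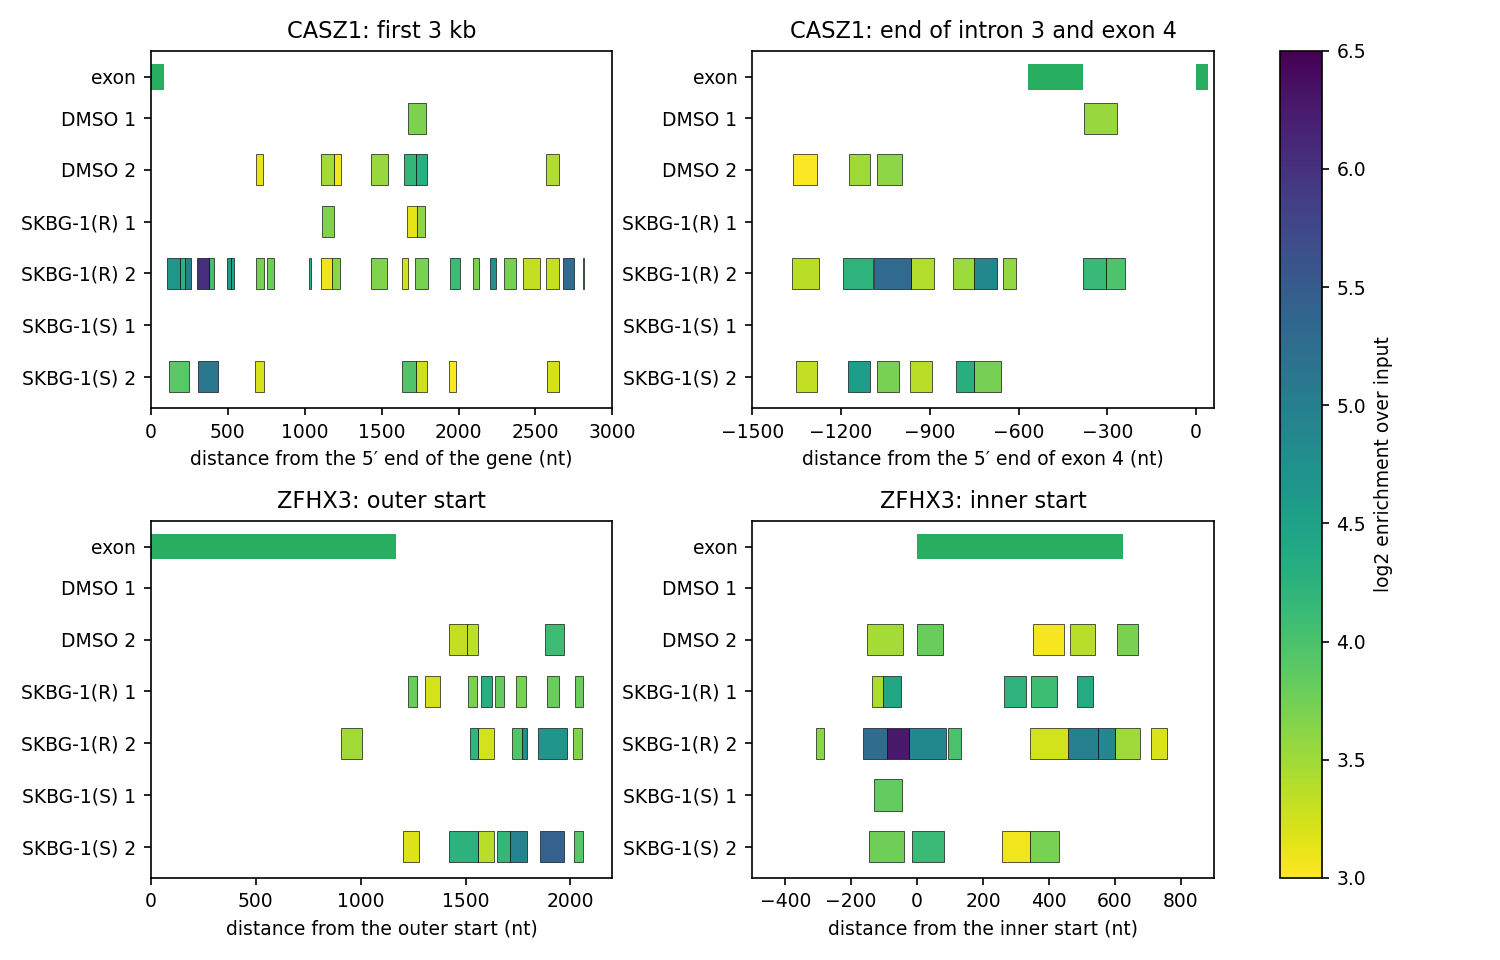
Boxes are NONO peaks by list at 4 places, the first 3 kb of CASZ1, the end of CASZ1 intron 3 with exon 4, and the outer and inner starts of ZFHX3, placed by distance in nt and coloured by log2 enrichment over input. Green boxes are exons. At the outer start of ZFHX3 all peaks but 1 of SKBG-1(R) 2 follow the exon, and at the inner start peaks lie on both sides of the start.

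Elsewhere in CASZ1, SKBG-1(R) 2 held 91 of 102 peaks, DMSO 2 held 7 and SKBG-1(S) 2 held 4. The region chr1:10704771-10704912 was in all of these lists, and chr1:10697448-10697537 was in DMSO 2 and SKBG-1(S) 2. Intron 2 held 53 peaks, of which 50 were in SKBG-1(R) 2 and 3 in DMSO 2. Intron 4 held 13, of which 12 were in SKBG-1(R) 2 and 1 in DMSO 2. Of the 121 merged regions of CASZ1, 99 (81.8%) were in SKBG-1(R) 2 only, against 35.7% of the regions of CUX1, 35.7% of those of ZFHX3 and 60.6% of all regions. The share of regions in 2 or more lists was 14.0% for CASZ1, 28.6% for CUX1 and 57.1% for ZFHX3, beside 23.2% for all genes. The spread was carried by the longest list and by 1 replicate, since SKBG-1(R) 1 had 3 CASZ1 peaks. Its CASZ1 peaks outside the start and exon 4 zones had a median −log10 p of 4.67, and those inside 9.96. Without SKBG-1(R) 2 the median position of CASZ1 peaks, as a fraction of the gene's length from its 5′ end, went from 0.25 to 0.084. Whether depth accounts for the length of that list was not tested.

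**Figure D4:**
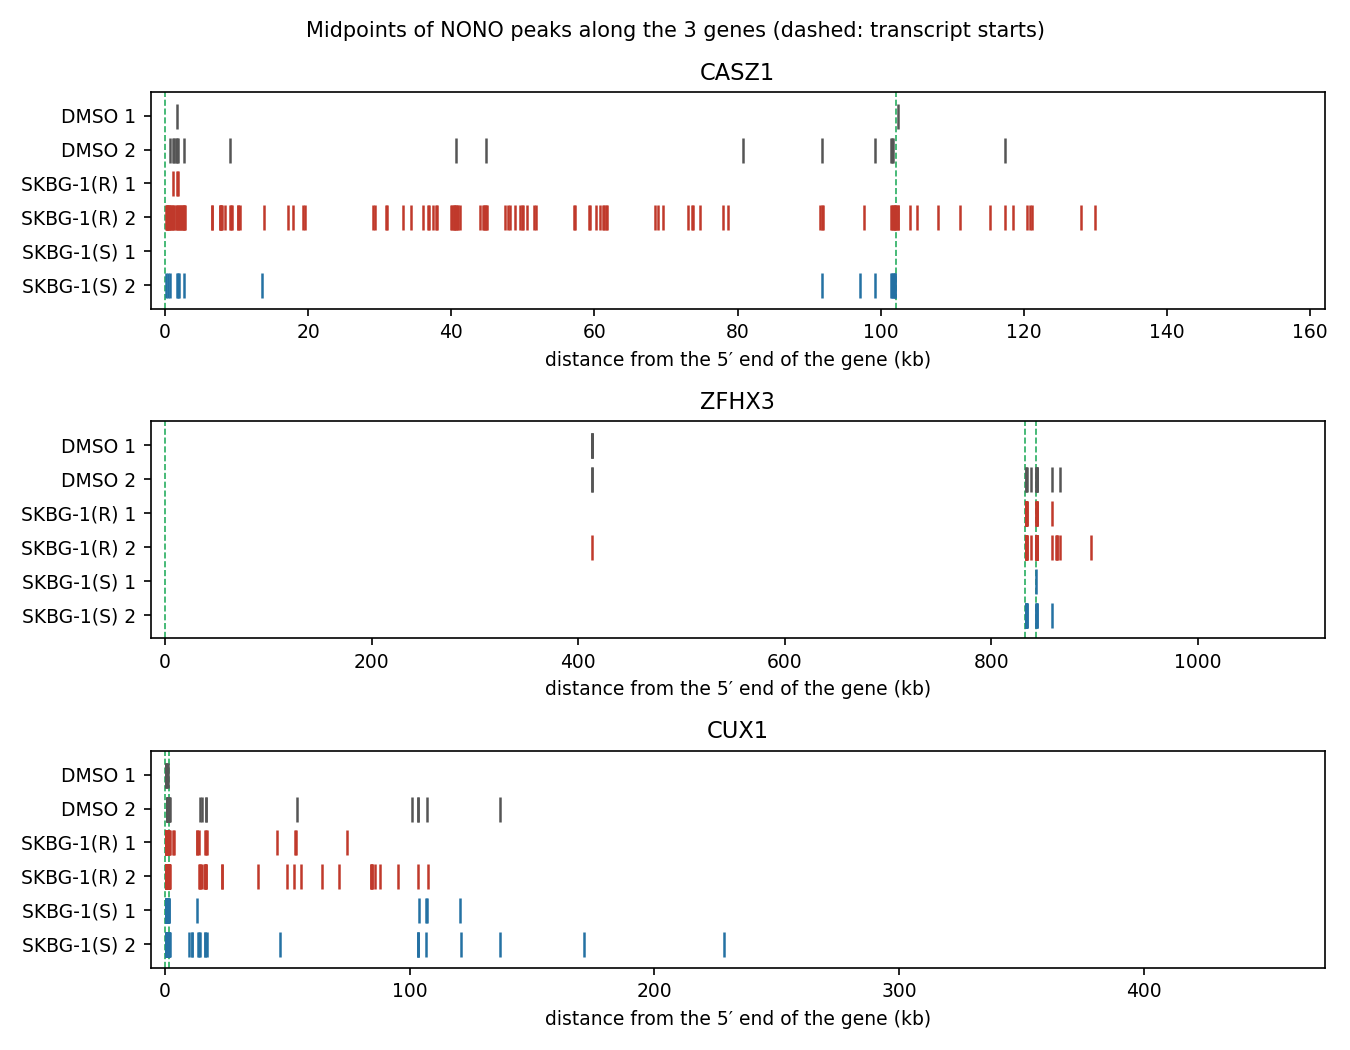
Ticks are the midpoints of all 410 peaks by list, at their distance in kb from the 5′ end of each gene. Dashed lines mark transcript starts. CUX1 peaks crowd at 0 kb in every list, ZFHX3 peaks lie past 800 kb save for the site at 414 kb, and only SKBG-1(R) 2 covers CASZ1 between its start and 80 kb densely.

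The comparisons of treatments ask whether the share of a list's NONO peaks that fell on these transcripts differed with either stereoisomer. This share is not an amount of RNA contact, since a single site can count as several touching peaks. No difference passed the test for any of the 3 genes. Log2 shares (prior count 2) were compared by limma over the 479 genes with at least 10 peaks. All 3 members passed that filter. Of these genes 0% were called in each of the 3 comparisons at a Benjamini-Hochberg adjusted p under 0.05. An unadjusted p under 0.05 was found for 3.13% of them for SKBG-1(R) against DMSO, 1.25% for SKBG-1(S) against DMSO and 1.04% for SKBG-1(R) against SKBG-1(S), and for none of the 3 members. Without SKBG-1(R) 1, 23 genes were called for SKBG-1(R) against DMSO and 23 between the isomers, and without DMSO 2 there was 1 for the former, none of them a member.

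SKBG-1(R) against DMSO gave log2 fold changes of 0.23 for CUX1 (95% interval −1.63 to 2.09), −0.33 for ZFHX3 (−2.45 to 1.79) and −0.0036 for CASZ1 (−2.38 to 2.38). The limma adjusted p was 0.993 for CUX1 and ZFHX3 and 0.9998 for CASZ1. The groups overlapped for all 3 genes, whereas 10.4% of genes tested were higher without overlap and 9.39% lower. The median over all genes tested was 0.23. The SKBG-1(R) lists differed between themselves. Without SKBG-1(R) 1 CASZ1 stood at 1.07, ZFHX3 at −1.26 and CUX1 at −0.59, and without SKBG-1(R) 2 they stood at −0.94, 0.55 and 1.01.

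SKBG-1(S) against DMSO gave 0.92 for CUX1 (−0.94 to 2.78), −1.27 for ZFHX3 (−3.39 to 0.85) and −1.51 for CASZ1 (−3.89 to 0.87), each with a limma adjusted p of 1. The mean share of CUX1 was 137 per 10000 for SKBG-1(S) and 67.3 for DMSO, without overlap, as in 13.4% of genes tested. The mean share of ZFHX3 was 19.2 and 47.6, also without overlap, as in 4.80% of genes tested in that direction. That of CASZ1 was 21.4 and 38.1, with overlap. The median over all genes was 0.14. CUX1 stayed above 0 without any 1 of the lists, at 0.49 to 1.35. ZFHX3 went from −1.27 to −0.44 with touching peaks joined, and CASZ1 to 0.18 without SKBG-1(S) 1, its list of 0 peaks.

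The stereoisomers, at the same dose and time, did not differ past the threshold either. SKBG-1(R) against SKBG-1(S) gave 1.51 for CASZ1 (−0.87 to 3.89), 0.95 for ZFHX3 (−1.18 to 3.07) and −0.69 for CUX1 (−2.55 to 1.17), with a limma adjusted p of 0.995 for each over all 479 genes. The groups overlapped for all 3, while 6.26% of genes tested were higher for SKBG-1(R) without overlap and 16.3% lower. The intervals leave room for several-fold differences in either direction, so they do not show that the isomers act alike. For CASZ1 the value was −0.19 without SKBG-1(S) 1 and 0.18 without SKBG-1(R) 2. For CUX1 it was 0.12 without SKBG-1(R) 2. The SKBG-1(R) and SKBG-1(S) comparisons with DMSO share their control lists.

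**Figure D5:**
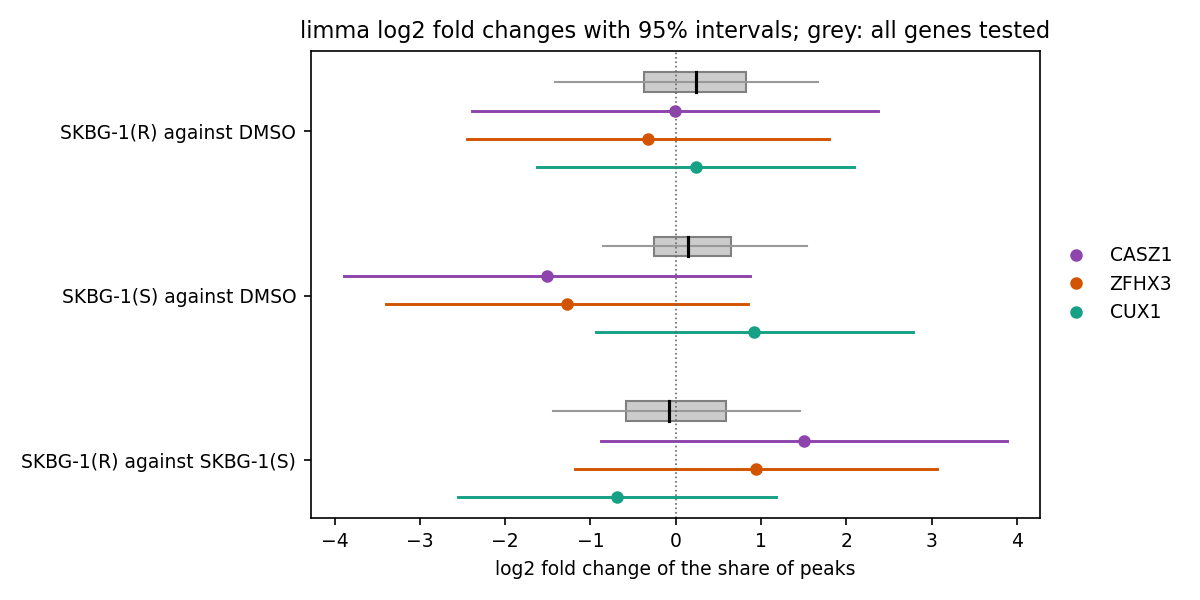
Points are log2 fold changes of the share of peaks from limma, with 95% intervals, for the 3 genes in the 3 comparisons. The grey box spans the middle 50% of the 479 genes tested, its black line is their median and the thin line runs from the 5th to the 95th percentile. Every member interval crosses 0.

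Other genes of these families also carried NONO peaks, in a series where 1689 genes of any kind had a peak. Whether the families differed from all genes in this was not tested. Of 128 further homeobox genes listed, 14 had a peak in any list and 3 were tested, with 0 called in each comparison. The 4 with most peaks were PKNOX1, a partner of PBX proteins, with 64, HOXB6 with 14, the zinc-finger homeobox gene ZHX2 with 10, and POU6F1 with 6. PKNOX1 was in every list, with 6 and 10 peaks for DMSO, 7 and 15 for SKBG-1(R), and 10 and 16 for SKBG-1(S). All 14 had 118 peaks. CUX1 and ZFHX3 together held more, but members and lists were chosen with earlier results of these data known, so nothing is read from this. Median log2 fold changes of the 3 tested genes were −1.17 for SKBG-1(R) against DMSO, 0.18 for SKBG-1(S) against DMSO and −0.60 between the isomers.

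Of 68 further large zinc-finger factors, 10 had a peak and 7 were tested, with 0 called in each comparison. The most marked were ZFPM1, a GATA cofactor, with 289 peaks, RREB1 with 46, HIVEP2 with 17 and PRDM10 with 16. ZFPM1 shared the CASZ1 pattern in that 247 of its 289 peaks were in SKBG-1(R) 2, against 1, 30, 0, 1 and 10 in the other lists. The medians of the 7 were −0.40, −0.17 and −0.27 in the same order of comparisons, beside 0.23, 0.14 and −0.08 over all genes tested.

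Of 32 transcription factors of the prostate lineage, 10 had a peak and 6 were tested, again with 0 called. They were led by NFIX with 274 peaks, NCOA2 with 67, SPDEF with 55 and ZBTB16 with 51. Their medians were −0.45, −0.18 and −0.63. Among the cell type markers, the luminal genes SPDEF and TMPRSS2 had 55 and 5 peaks, and the neuroendocrine splicing factor SRRM4 had 12. Basal, fibroblast, endothelial and leukocyte markers had 0. Peaks are not expression levels, so this is a limited check of the labelled cell line. SPDEF and SRRM4 were tested, and neither was called in any comparison.

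The genes most like each member across the 6 lists were found by Pearson correlation of log2 peaks per 10000, given as a description over 6 lists that share their lengths. For CASZ1 they included ZNF787 (r = 0.88) and PMEPA1 (0.87). For ZFHX3 they were UBE2K (0.94), STK25 (0.90) and ZMYND11 (0.88), and for CUX1 MNT (0.95), EEF1A1 (0.94) and SRPK2 (0.92). Some of these values rest on very few peaks. EEF1A1 had 0 and 0 for DMSO, 4 and 0 for SKBG-1(R), and 3 and 3 for SKBG-1(S). UBE2K had 1 and 1, 4 and 2, and 0 and 2 in the same order. Among the members, CASZ1 and CUX1 ran opposite (r = −0.90), CASZ1 and ZFHX3 had r = 0.35, and ZFHX3 and CUX1 −0.083. The CUX1 share was highest in SKBG-1(S) 1, where CASZ1 had 0 peaks, and lowest in SKBG-1(R) 2, where the CASZ1 share was highest.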

How the data were processed

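NONO eCLIP peak lists of 22Rv1 cells were analysed for 3 genes, chosen, like the gene lists and zones, with earlier results of these data known. Groups and replicate numbers came from sample titles. Nothing in the labels says that the replicates came from different cultures, and a p-value here covers only the spread among these lists, possibly technical. Of 12 libraries, 6 were immunoprecipitations, and the authors deposited 1 peak list for each against its own input, not pooled. Each deposited peak carries a −log10 p (at least 3, capped at 400) and a log2 enrichment over input (at least 3), both computed by the authors, and an annotated gene and class. Cutadapt 1.9 and STAR 2.4.0i were used, per the submitters' processing notes. Peak caller: not given in the sources used here. Coordinates are in GRCh38: all 28 annotated transcripts of the members matched GENCODE 29 within 1 nt.

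Peaks per gene were scaled to 10000 peaks of the list and tested on the log2 scale (prior count 2, genes with at least 10 peaks) by limma 3.58.1 with a trended variance, all 6 lists in 1 fit, Benjamini-Hochberg threshold 0.05. The code was tested on simulated data. Overlap meant 1 nt on the same strand. No read counts were given, so depth is unknown and list length sets the precision. Intervals of shares are 95% Wilson intervals. Named were the members, up to 4 regions of each by number of lists, the 4 genes of each list with most peaks and the 3 genes most correlated with each member. Values of 2 genes that this rule or a marker list names are not reported here. CUX1 regions before and within the inner start, and intron counts, were added after their values were seen. Further regions of ZFHX3 and CASZ1 were also named outside this rule. Reference sequence was matched for 2 of 3 members. Motifs were searched in the RefSeq windows and the printed sequences, not in all peaks. Alternatives covered the prior count, filters, scaling, peak thresholds, list length, the unit counted, the replicate block and leaving out each list.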

Additional observations from a re-analysis of the deposited data

How the results depend on the processing

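No alternative called CUX1, ZFHX3 or CASZ1 in any comparison. Over 20 alternatives the log2 fold change of CUX1 for SKBG-1(S) against DMSO stayed above 0 (0.49 to 1.35), and that of ZFHX3 between the isomers too (0.034 to 1.68). With SKBG-1(R) against DMSO, CASZ1 rose above 0 with a prior count of 5 (0.042), TMM scaling (0.59), no scaling (1.52), a log2 enrichment of at least 4 (0.46) and a −log10 p of at least 5 (0.32), and ZFHX3 with TMM scaling (0.19), no scaling (1.13), lists of equal length (0.11), regions (0.57), summed width (0.83) and touching peaks joined (0.48). CASZ1 with SKBG-1(S) against DMSO turned to 0.11 and 0.033 under the same peak thresholds, ZFHX3 to 0.089 with summed width, and CUX1 between the isomers to 0.52 with no scaling. No scaling moved the median of all genes tested for SKBG-1(R) against DMSO from 0.23 to 1.10. The cause of the other reversals was not tested.

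Leaving out each list in turn gave, for SKBG-1(R) against DMSO, −0.94 to 1.07 for CASZ1, −1.26 to 0.55 for ZFHX3 and −0.59 to 1.01 for CUX1. For SKBG-1(S) against DMSO it gave −3.22 to 0.18, −2.01 to −0.55 and 0.49 to 1.35, and between the isomers −0.19 to 3.22, 0.034 to 1.68 and −1.51 to 0.12. A lone list left in a group was assumed to vary like the other groups. The count of genes called was 0 to 23 for SKBG-1(R) against DMSO and 0 to 23 between the isomers, in both cases 23 without SKBG-1(R) 1, and 1 without DMSO 2 for the former. It was 1 for SKBG-1(R) against DMSO with at least 5 peaks and with summed width in place of 0.

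With the replicate number as a block the count for SKBG-1(R) against DMSO was 1 in place of 0, and 0 for the other comparisons, with no member called. Deviations of same-numbered lists from their group means correlated at 0.54, 0.58 and 0.42 over 479 genes. The replicate 2 list was also the longer in every treatment. No label names a shared batch, and what same-numbered lists share beyond number and relative length was not tested.

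The regions held by all 6 lists in CUX1 were 2, and 1 or 0 under stricter peak thresholds or equal list lengths. At equal length, each list was cut to its 669 peaks of highest log2 enrichment, and fewer CASZ1 peaks were left than the 162 of the full lists. Those left had a median position of 0.014 and 30% were in proximal introns, values that describe the most enriched peaks only. The share near a coding start at 1 and 5 kb, an alternative chosen after seeing the data, was 60.3 and 61.5% for CUX1, 37.7 and 72.5% for ZFHX3 and 8.02 and 25.3% for CASZ1.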
